A study of Mus musculus with 9 samples.

Results

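The mitochondrial ribosomal protein genes were taken from the RNA count data as every protein-coding gene with a symbol of the form Mrpl or Mrps followed by a number, together with Dap3, and with pseudogenes left out. The rule found 79 genes among 48795 gene identifiers, 49 named for the large subunit and 30 for the small subunit (Dap3 included). Mitochondria have their own ribosome, which makes the few respiratory chain proteins encoded in mitochondrial DNA. All of its proteins are encoded in the nucleus, made in the cytosol and imported, and they are assembled on ribosomal RNA transcribed inside the organelle. Many are homologues of bacterial ribosomal proteins, and others are found in mitochondrial ribosomes alone. The small subunit binds the messenger RNA and decodes it, and the large subunit joins the amino acids and anchors the ribosome to the inner membrane, where its products are inserted.

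Follicular B cells, the main resting B cells of the spleen, were selected on CD23 from C57BL/6 yy1 f/f mice, in which loxP sites flank the gene of the transcription factor YY1. Every library used here carries that floxed genotype. The tatcre cells had received TAT-CRE, a cell-permeable Cre recombinase, and the mock cells a treatment without it, and both were then grown with LPS and IL-4 together, a mitogen and a cytokine that activate them. The sources differ on the culture: the series text has 72 hours and 10% serum, while the sample text has 48 hours and 20% serum and also lists TAT-CRE for every sample. Groups were taken from the sample titles. RNA-seq gave 3 mock and 3 tatcre libraries. All tatcre and no mock libraries were exposed to the recombinase, so exposure and loss of Yy1 cannot be told apart. The series text describes spleens of 3 mice divided over the treatments, but the labels do not tie a library to a mouse, and each p-value reflects only how far these 6 libraries scatter.

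The libraries held 22729187 to 28230727 gene counts, of which 0.346 to 0.394% fell on the mitochondrial ribosomal protein genes. Values are given as CPM (counts relative to a library size scaled by TMM) and are not corrected for transcript length, so they compare libraries and not genes. Yy1 stood at 100, 112 and 108 CPM in the mock libraries and at 0.984, 1.5 and 2 CPM in the tatcre libraries, a 71-fold fall (log2 fold change -6.15, SE 0.17, edgeR adjusted p = 1.7e-08). B cell markers were abundant and lower in tatcre cells. Summed over 8 genes they stood at 5059 to 5350 CPM in mock and 4136 to 4202 CPM in tatcre libraries. Of the 8 genes 5 were called lower, where 16.3% of all tested genes were. The 8 T cell markers summed to 15.1 to 22 CPM in mock and 10.2 to 13.5 CPM in tatcre libraries, and the 8 myeloid markers to 22.5 to 28.1 and 12.6 to 15.8 CPM. The 5 plasma cell markers summed to 812 to 851 and 633 to 694 CPM, and the 5 NK cell markers to 0.667 to 0.809 and 0.281 to 0.543 CPM. The 5 dendritic cell markers summed to 120 to 134 CPM in mock and 106 to 113 CPM in tatcre libraries. Cd4, Cd8a, Cd3d, Lyz2 and Cd14 had at most 3 counts in any library, but 3 T cell and 2 myeloid markers could be tested. Among tested markers 2 of 5 plasma cell, 1 of 3 T cell, 1 of 2 myeloid and 1 of 2 dendritic genes were called lower, and none higher. Whether these differences bear on the ribosomal protein genes was not tested, and in bulk RNA fewer cells of a type and less RNA per cell cannot be told apart.

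The mitochondrial ribosomal protein genes did not move as a block. Of the 79 genes 78 could be tested, and 19 fell, 8 rose and 51 were not called in tatcre cells (edgeR quasi-likelihood test over all genes, Benjamini-Hochberg adjusted p under 0.05). The falls made up 24.4% of the tested members, against 16.3% of all tested genes, and the rises 10.3% against 10.8%. Among the 5911 tested genes with a mean log2 CPM of 3.34 to 6.43, the 10th to the 90th percentile of the members, 21.4% were called lower and 14% higher. Read against those shares, the members' falls were near the background and their rises at or below it. The median log2 fold change was -0.04 over the members, -0.04 over genes in that expression range and 0.02 over all tested genes. Changes ran from -1.49 (Mrps18b) to 0.65 (Mrps15), and 41 of 78 genes stayed within 0.25 of 0 on the log2 scale. All tatcre values lay below all mock values for 25 members and above them for 11, where the shares in the same expression range were 28.8% and 20.6%, and over all tested genes 23.3% and 20.6%.

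**Figure D1:**
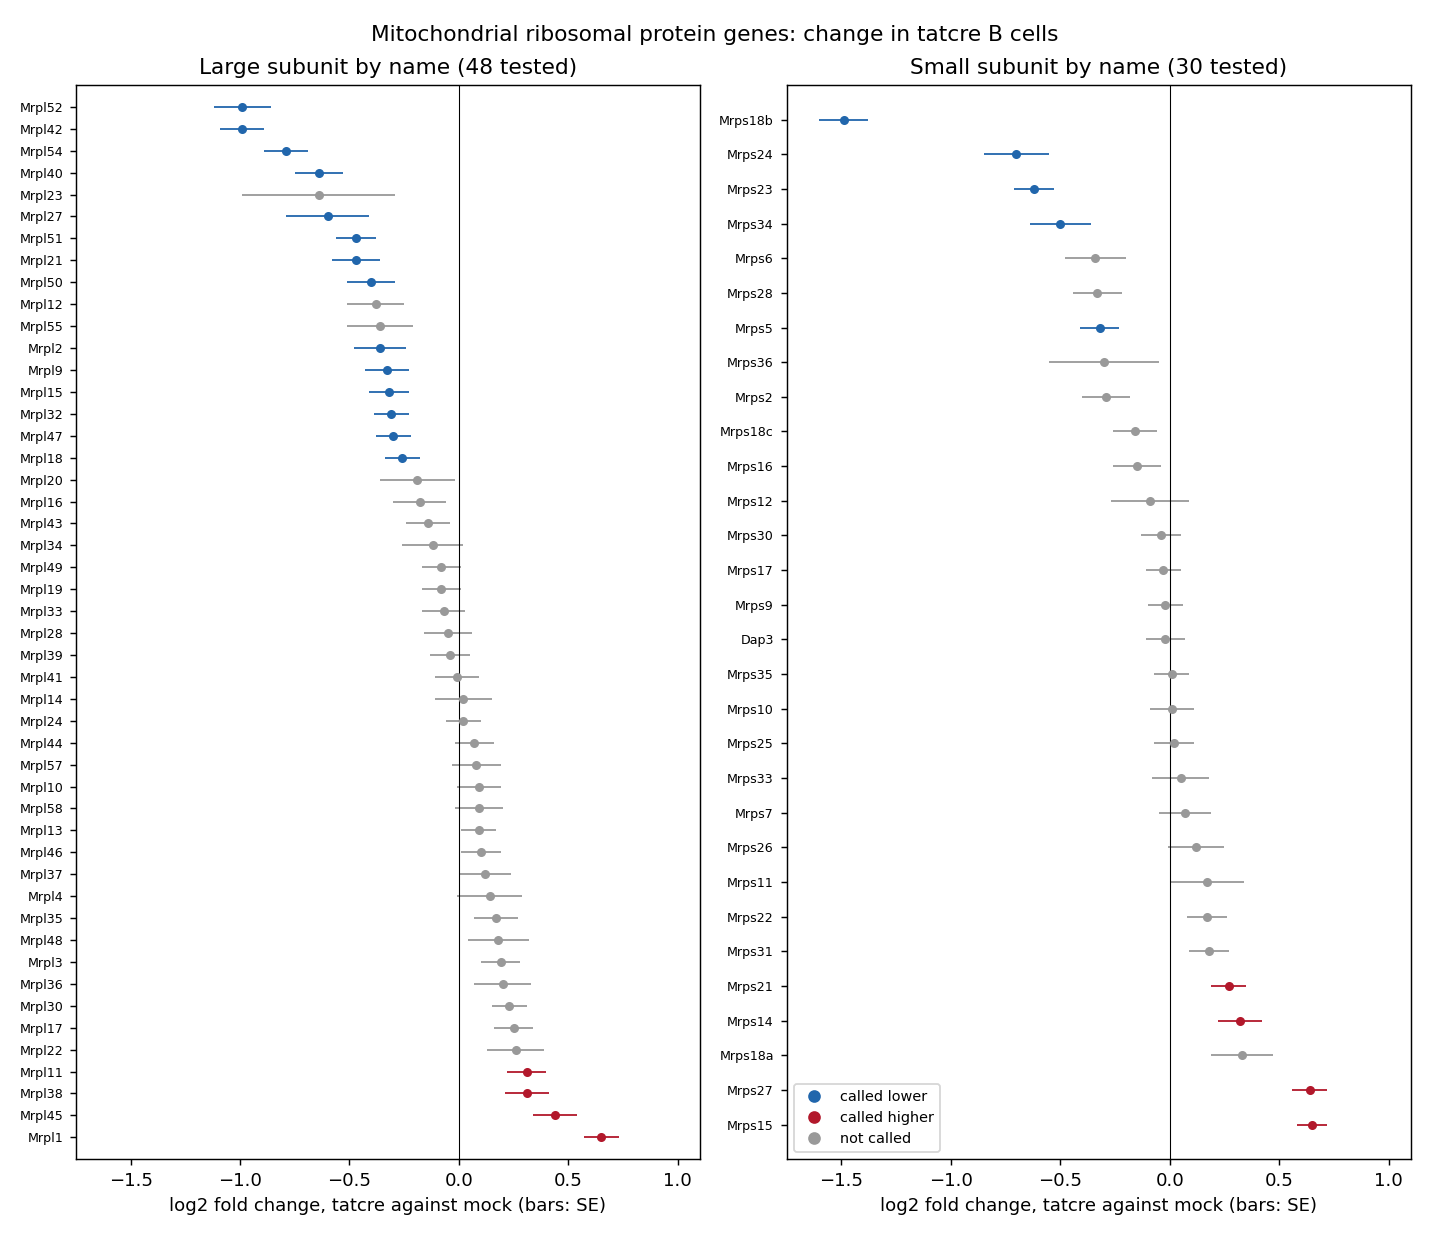
Log2 fold change of tatcre against mock cells for each tested gene, with its standard error, in 2 panels for genes named for the large (48) and the small subunit (30). Blue genes were called lower, red genes higher and grey genes neither, and most genes of both panels sit close to 0 while Mrps18b lies apart at -1.49.

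The coefficient of variation between replicates had a median of 7.52% in mock and 7.03% in tatcre cells for these genes, against 10.9 and 12% for all tested genes. The members' levels were higher in mock 2 than in the other mock libraries, by a median log2 deviation of 0.1 from the mock mean, against -0.06 in mock 1 and -0.03 in mock 3. Without mock 2 the falls dropped from 19 to 9, while 7 genes rose; over all tested genes falls then went from 2536 to 1960 and rises from 1679 to 998. When mock 1, mock 3 or tatcre 1 was left out 4 members rose, and 5 when tatcre 3 was. Over all tested genes the rises then numbered, in the same order, 1681, 1311, 1002 and 1384. The balance also moved with scaling: 19 falls and 8 rises became 13 and 12 with upper-quartile factors and 9 and 15 with library size alone, which shifts the median of all genes from 0.024 to 0.129. The same turn was seen over all tested genes, with 2097 falls and 2229 rises under upper-quartile factors and 1894 and 2614 under library size alone. In all, 9 falls and 4 rises held under each of 12 alternatives, and the genes behind them are described below.

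Because YY1 binds DNA, the promoters of these genes were searched for its core sequence, AANATGGC, or GCCATNTT where it lies on the opposite strand. The windows were those of RefSeq on GRCm38.p6, from 250 bases before to 50 after each annotated start, and 69 of the 79 genes had at least 1; those without are Dap3, Mrpl4, Mrpl13, Mrpl15, Mrpl19, Mrpl38, Mrpl54, Mrps28, Mrps34 and Mrps35. The core was present for 21 of the 69 genes (30.4%), against 970 of 9453 tested protein-coding genes (10.3%) and 6.05% of all 32851 windows. Among the members that fell 8 of 16 with a window held it, among those that rose 2 of 7, and among those not called 11 of 45. Over all tested protein-coding genes it was present in 17% of those that fell, 10% of those that rose and 8.38% of those not called. Put the other way, 32.4% of tested protein-coding genes with the core were called lower and 11.6% higher, against 18.1 and 12% of those without it. Genes with and without the core were not matched for expression level. In 16 members the core lay on the gene's own strand just after the annotated start, its first base 6 to 36 bases downstream. Of 24 matches in members 66.7% had that strand and side, against 33.9% of 1096 matches in tested protein-coding genes. A match lying in several windows of 1 gene was counted once among the members but once per window among the 1096. All are matches of letters and not measured binding sites. Read on the gene's strand the core contains ATG, the letters with which the code for a protein begins. Whether the matches after the start lie at that place was not tested. The deposited YY1 peaks were not used here, since some lie beyond the last annotated gene of their chromosome on GRCm38 and their coordinates were not checked further.

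The windows of 30 bases around the core are shown for the members that fell with the core after their start. They are followed by both rising members with the core and by Mrps18a, which was not called. These windows were chosen for that position, so their alike placing follows from the choice. Among the members that fell, Mrpl32 had the core only at -242 from the start, on the opposite strand. Mrpl47 also had it on the opposite strand, at -242 and -90. Psma2 starts 205 bases from Mrpl32 in the opposite direction, so the match of Mrpl32 lies past the start of Psma2, on its strand. The same holds for opposite-strand matches of Mrps27 (-121, Ptcd2 at 108 bases), Mrps11 (-107, Mrpl46 at 42 bases) and Mrps12 (-199, Sars2 at 147 bases). All of these are counted with the members. Capitals mark the 8 letters of the core, and each sequence reads 5′ to 3′ on the strand of its gene.
Mrpl42 (chr10:95501904-95501933, minus strand): cagattgaagcAAGATGGCgagcgcgcggt
Mrps24 (chr11:5707652-5707681, minus strand): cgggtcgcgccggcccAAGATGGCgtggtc
Mrpl21 (chr19:3283058-3283087, plus strand): gggactgtggaAACATGGCtgctgccatag
Mrpl51 (chr6:125192207-125192236, plus strand): gggtaaggcccAAAATGGCtcctcttactg
Mrpl27 (chr11:94653788-94653817, plus strand): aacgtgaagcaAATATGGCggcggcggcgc
Mrpl18 (chr17:12916067-12916096, minus strand): tacccacagttAACATGGCtgcgactagtt
Mrpl47 (chr3:32736724-32736753, minus strand): tctccattagaAACATGGCtgcgaccagtc
Mrps27 (chr13:99344789-99344818, plus strand): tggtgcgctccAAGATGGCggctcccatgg
Mrpl11 (chr19:4962315-4962344, plus strand): acctctgacccAAAATGGCcgcgcccagag
Mrps18a (chr17:46111004-46111033, plus strand): aggtgcgttccAAGATGGCggccctcaggg
The same 8 letters, AAGATGGC, stood on the gene's strand after the start of Mrpl42 and Mrps24, which fell, of Mrps27, which rose, and of 5 genes that were not called (Mrps18a, Mrpl35, Mrpl37, Mrpl49 and Mrps7). Of the 9 genes whose fall held under every alternative, 8 had a window and 4 of these held the core (Mrpl42, Mrps24, Mrpl21 and Mrpl51). Mrps18b, Mrpl52, Mrpl40 and Mrps23 had a window without it.

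**Figure D2:**
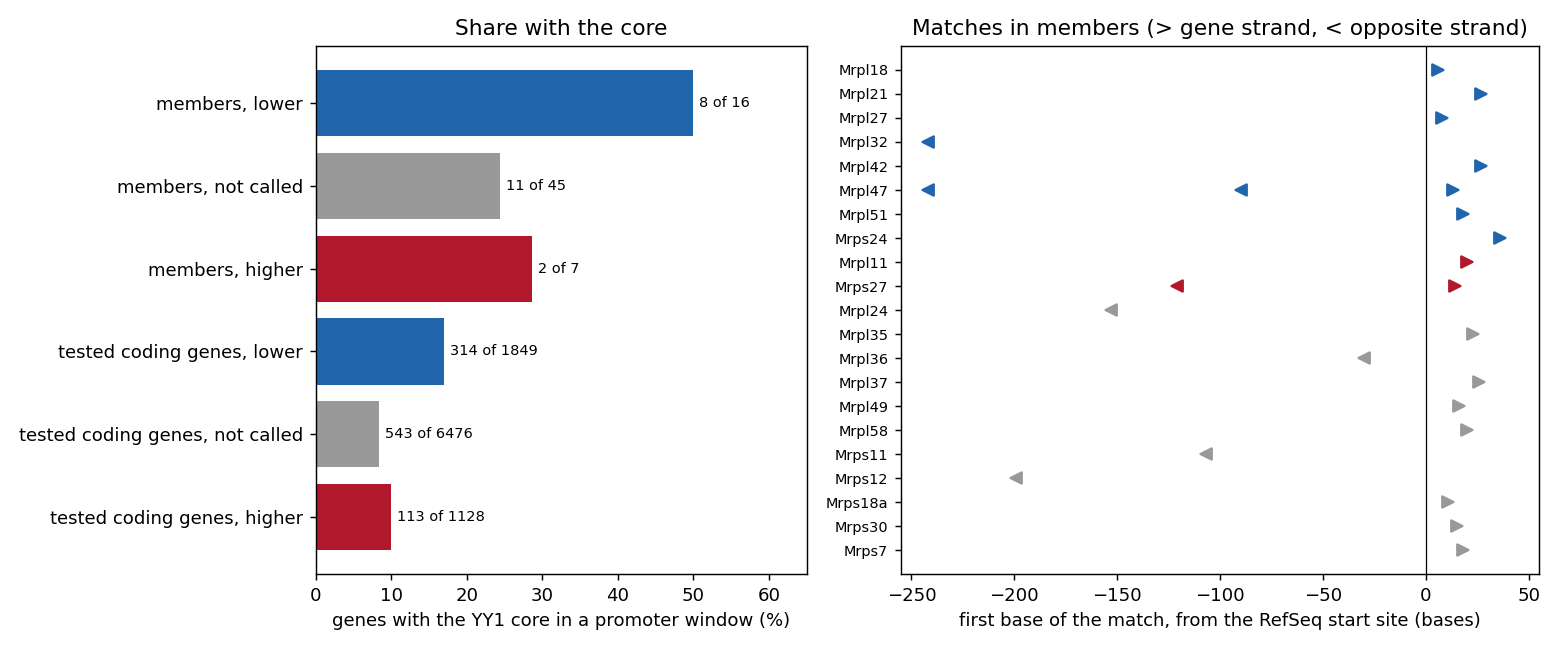
Left, percentage of genes with the YY1 core in a promoter window, for members and for tested protein-coding genes, by call (numbers beside the bars are genes). Right, position of each match in the 21 members from the RefSeq start at 0, with right-pointing marks for the gene's strand, and 16 of 24 marks gather just after the start.

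In the small subunit 5 of 30 tested genes fell (16.7%, against 16.3% of all tested genes) and 4 rose (13.3% against 10.8%). Of the tested genes in the members' expression range 21.4% fell and 14% rose. The median log2 fold change of the small-subunit genes was -0.02. Without mock 2, 3 genes fell, and without mock 1, mock 3 or tatcre 1, 2 rose. Over all tested genes 1960 fell without mock 2 (2536 with it), and 1681, 1311 and 1002 rose in the other 3 fits (1679 with all libraries). Mrps18b (ENSMUSG00000024436, chromosome 17, 35910380 to 35916440) encodes 1 of 3 paralogs related to the bacterial S18 protein, and is counted here as mitochondria-specific because Mrps18c takes that protein's place. It stood at 39.5, 49.2 and 39.7 CPM in the mock libraries and at 15.6, 14.5 and 15.7 CPM in the tatcre libraries. Each tatcre library was far below each mock library. The level went from 42.8 ± 5.54 to 15.3 ± 0.669 CPM (SD, n = 3 each), a 2.8-fold fall (log2 fold change -1.49, SE 0.11, edgeR adjusted p = 8.1e-06), and it is the member with the largest change in either direction. Its paralogs were not called. Mrps18c had 14.8, 14.7 and 15.1 CPM in mock and 13, 13.2 and 13.6 CPM in tatcre libraries, a small separation without a call (log2 fold change -0.16, SE 0.1, edgeR adjusted p = 0.27). Mrps18a, which is built into the large subunit despite its name, had 17.4, 20.4 and 16.4 CPM in mock and 25.4, 18.5 and 24.2 CPM in tatcre libraries, with overlap between the groups (log2 fold change 0.33, SE 0.14, edgeR adjusted p = 0.1). Mrps18a was called higher without tatcre 2 (edgeR adjusted p = 0.016), with upper-quartile factors (0.047) and with library size alone (0.036). The difference in response between the paralogs was not tested.

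Mrps24, a homologue of bacterial S3 at the entry of the messenger RNA channel, had 11.4, 12.6 and 12.1 CPM in mock and 8.77, 6.31 and 7.06 CPM in tatcre libraries (chromosome 11, 5703982 to 5707701). All tatcre values were lower, a 1.63-fold fall (log2 fold change -0.7, SE 0.15, edgeR adjusted p = 0.0049). Mrps23, a protein found only in mitochondrial ribosomes, had 91.3, 105 and 94.5 CPM in mock and 66, 59.3 and 64.3 CPM in tatcre libraries. It fell 1.53-fold (log2 fold change -0.62, SE 0.09, edgeR adjusted p = 0.00048) with no overlap. Mrps34, another mitochondria-specific protein, stood at 18.7, 18.1 and 17.4 CPM in mock and at 14.3, 10.1 and 14 CPM in tatcre libraries, with tatcre 2 the lowest. Its fall (log2 fold change -0.5, SE 0.14, edgeR adjusted p = 0.022) was lost without mock 1 or mock 2 (edgeR adjusted p = 0.057 and 0.06). Mrps5, a bacterial-type protein of the decoding subunit, also fell (log2 fold change -0.32, edgeR adjusted p = 0.027), but not without mock 2, mock 3, tatcre 1 or tatcre 2 (edgeR adjusted p = 0.058 to 0.094).

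The rises of the small subunit were led by Mrps15, a homologue of the bacterial protein S15 that binds early to the small ribosomal RNA. It gave the most counts of all members, with 364, 371 and 367 CPM in mock and 573, 603 and 553 CPM in tatcre libraries (chromosome 4, 126046928 to 126055536). The mock libraries were nearly equal, and each tatcre library lay well above them. Mrps15 rose 1.57-fold (log2 fold change 0.65, SE 0.07, edgeR adjusted p = 7.7e-05). Mrps27, a pentatricopeptide repeat protein of the small subunit, had 43.8, 41.6 and 43.7 CPM in mock and 68.3, 68.1 and 64.7 CPM in tatcre libraries (chromosome 13, 99344767 to 99415562). It rose 1.56-fold without overlap (log2 fold change 0.64, SE 0.08, edgeR adjusted p = 0.00019). Mrps14 and Mrps21, both of bacterial type, rose less (log2 fold changes 0.32 and 0.27, edgeR adjusted p = 0.038 and 0.029). Neither held: Mrps14 was lost on leaving out any library but tatcre 3 (edgeR adjusted p = 0.073 to 0.15), and Mrps21 without mock 1, mock 3, tatcre 1 or tatcre 3 (edgeR adjusted p = 0.073 to 0.13). Dap3, a GTP-binding protein at the head of the small subunit, stood at 50.9, 52.4 and 46.5 CPM in mock and at 48.4, 47.5 and 52.3 CPM in tatcre libraries. Its groups overlapped and their difference was small (log2 fold change -0.02, SE 0.09, edgeR adjusted p = 0.9).

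In the large subunit 14 of 48 tested genes fell (29.2%, against 16.3% of all tested genes) and 4 rose (8.33% against 10.8%). Of the tested genes in the members' expression range 21.4% fell and 14% rose. The median log2 fold change of the large-subunit genes was -0.06. Without mock 2 the falls numbered 6, and without mock 1, mock 3, tatcre 1 or tatcre 3 the rises numbered 2. Over all tested genes the falls then went from 2536 to 1960, and the rises from 1679 to 1681, 1311, 1002 and 1384 in the same order. Mrpl42 (ENSMUSG00000062981, chromosome 10, 95480805 to 95501949), which encodes a mitochondria-specific protein, had 167, 202 and 174 CPM in mock and 98.1, 80.5 and 93.9 CPM in tatcre libraries. Its lowest mock value was far above its highest tatcre value. The level went from 181 ± 18.4 to 90.8 ± 9.19 CPM (SD, n = 3 each), a 1.99-fold fall (log2 fold change -0.99, SE 0.1, edgeR adjusted p = 6.2e-05). Mrpl52, also mitochondria-specific, fell by as much at a lower level, from 16.7, 17.9 and 14.4 CPM in mock to 7.99, 7.64 and 9.02 CPM in tatcre libraries (log2 fold change -0.99, SE 0.13, edgeR adjusted p = 0.00032). Mrpl54 had 35.6, 39.3 and 35.5 CPM in mock and 23.7, 19.7 and 20.4 CPM in tatcre libraries. All tatcre libraries were lower, a 1.73-fold fall (log2 fold change -0.79, SE 0.1, edgeR adjusted p = 0.00029). Mrpl40, whose human homologue lies in the region deleted in DiGeorge syndrome, had 30.1, 39.5 and 33.6 CPM in mock and 22.6, 20.7 and 23.1 CPM in tatcre libraries. It fell 1.56-fold without overlap (log2 fold change -0.64, SE 0.11, edgeR adjusted p = 0.0021).

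Smaller falls of the large subunit included Mrpl51 (59 ± 4.44 to 42.7 ± 2.35 CPM, edgeR adjusted p = 0.0031) and Mrpl21 (13.2 ± 0.678 to 9.56 ± 0.239 CPM, edgeR adjusted p = 0.011), both 1.38-fold and both held under every alternative. Mrpl27, a homologue of a bacterial protein near the peptidyl transferase centre, was among the members with the fewest counts, at 5.48, 5.15 and 5.32 CPM in mock and 3.81, 3.76 and 2.93 CPM in tatcre libraries. Its fall (log2 fold change -0.6, SE 0.19, edgeR adjusted p = 0.034) was lost on leaving out any library but tatcre 2 (edgeR adjusted p = 0.058 to 0.098). The calls of the other 7 falls, with log2 fold changes of -0.26 to -0.4, were each lost on leaving out 1 or more libraries. A lost call need not mean a smaller change. Without mock 2 the log2 fold change of Mrpl32 went from -0.31 to -0.30 and that of Mrpl2 from -0.36 to -0.27. Each fit with a library left out also called fewer falls over all tested genes (1960 to 2391 against 2536). Mrpl15, Mrpl47 and Mrpl32 were lost without mock 2 and without, in the same order, tatcre 2, tatcre 3 and tatcre 1 (edgeR adjusted p = 0.05 to 0.092). Mrpl50 was lost without mock 2, tatcre 1 or tatcre 3 (edgeR adjusted p = 0.05 to 0.09) and Mrpl9 without mock 2, mock 3 or tatcre 2 (edgeR adjusted p = 0.06 to 0.076). Mrpl2, a homologue of a core protein of the bacterial large subunit, was lost without mock 1, mock 2, tatcre 1 or tatcre 2 (edgeR adjusted p = 0.051 to 0.15). Mrpl18 was lost without mock 2, mock 3, tatcre 1 or tatcre 3 (edgeR adjusted p = 0.053 to 0.13). Mrpl12, of the stalk that recruits translation factors, missed the threshold (108 ± 17.1 to 82.5 ± 12.5 CPM, edgeR adjusted p = 0.052) and passed it without mock 1, mock 3 or tatcre 1 (edgeR adjusted p = 0.034 to 0.045), with DESeq2 (adjusted p = 0.022) and without the low-count filter (edgeR adjusted p = 0.0002). Library size alone ended the call of each of the 10 falls that did not hold, Mrps5 and Mrps34 included (edgeR adjusted p = 0.052 to 0.16).

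Among the rises of the large subunit Mrpl1, a homologue of the bacterial protein of the L1 stalk, which moves with the leaving transfer RNA, was the largest. It had 48.6, 49.7 and 54.2 CPM in mock and 81.3, 83.1 and 74.4 CPM in tatcre libraries (chromosome 5, 96209498 to 96266727), a 1.57-fold rise without overlap (log2 fold change 0.65, SE 0.08, edgeR adjusted p = 0.00031). Mrpl45, the protein that ties the ribosome to the inner membrane, went from 43.3, 45.4 and 37.9 CPM to 61.9, 54.9 and 54.5 CPM (log2 fold change 0.44, SE 0.1, edgeR adjusted p = 0.0069). Every tatcre library was above every mock library for both genes, and both calls held under all alternatives. Mrpl11, from the base of the stalk, and the mitochondria-specific Mrpl38 rose with a log2 fold change of 0.31 each (edgeR adjusted p = 0.029 and 0.035). Mrpl11 was lost on leaving out any library but tatcre 2 (edgeR adjusted p = 0.057 to 0.13), and Mrpl38 without mock 1, mock 3, tatcre 1 or tatcre 3 (edgeR adjusted p = 0.1 to 0.13). Mrpl39, the member with the most counts after Mrps15 and Mrpl42, stood at 120, 133 and 120 CPM in mock and at 129, 109 and 125 CPM in tatcre libraries, overlapping values without a call (log2 fold change -0.04, edgeR adjusted p = 0.77).

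**Figure D3:**
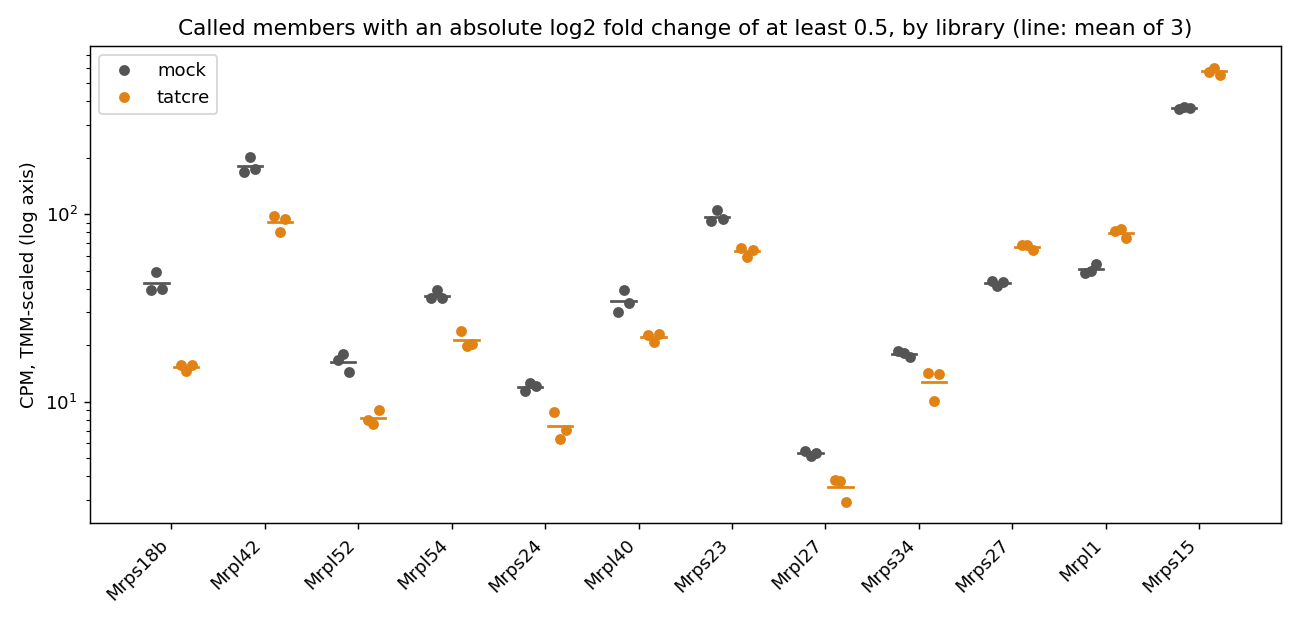
Level in each library, in TMM-scaled CPM on a log axis, of the 12 called members with an absolute log2 fold change of at least 0.5 (mock grey, tatcre orange, lines at the mean of 3). The groups are apart for each gene, with 9 genes lower in tatcre libraries and Mrps27, Mrpl1 and Mrps15 higher.

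By the origin of the proteins, falls numbered 8 of 30 bacterial homologues (26.7%) and 6 of 18 mitochondria-specific genes (33.3%) in the large subunit. In the small subunit they numbered 2 of 16 (12.5%) and 3 of 14 (21.4%). Rises numbered, in the same order, 2 of 30, 2 of 18, 3 of 16 and 1 of 14. Over all tested genes 16.3% fell and 10.8% rose, and in the members' expression range 21.4 and 14%. Falls and rises both included genes of either origin, with Mrps15 and Mrpl1 of bacterial type and Mrps27 and Mrpl45 mitochondria-specific among the rises. With Mrps18a and Mrps30 counted in the large subunit, where structures place their proteins, and Mrps36 in neither, 14 of 50 large-subunit genes and 5 of 27 small-subunit genes fell and 4 of each rose.

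Summed over each subunit, the large-subunit genes gave 2078, 2356 and 2150 CPM in mock and 2116, 1934 and 2091 CPM in tatcre libraries, and the small-subunit genes 1462, 1600 and 1511 CPM and 1692, 1643 and 1669 CPM. The ratio of the sums was 1.42, 1.47 and 1.42 in mock and 1.25, 1.18 and 1.25 in tatcre libraries, lower in each tatcre library. Mrps15 alone made up 23.2 to 24.9% of the small-subunit sum in mock and 33.1 to 36.7% in tatcre libraries. With Mrps15 left out, a choice made after seeing its level, the ratio was 1.89, 1.92 and 1.88 in mock and 1.89, 1.86 and 1.87 in tatcre libraries. The groups then overlapped, so the shift in the summed ratio rested on this gene. With Mrpl42 left out as well, the ratio was 1.73 to 1.75 in mock and 1.78 to 1.8 in tatcre libraries. Mrps15 rose (367 to 577 CPM) and Mrpl42 fell (181 to 90.8 CPM). Leaving out either gene therefore had to raise the tatcre ratio relative to mock. Both were picked with their changes known, so these ratios show only how far the sums rested on these 2 genes.

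**Figure D4:**
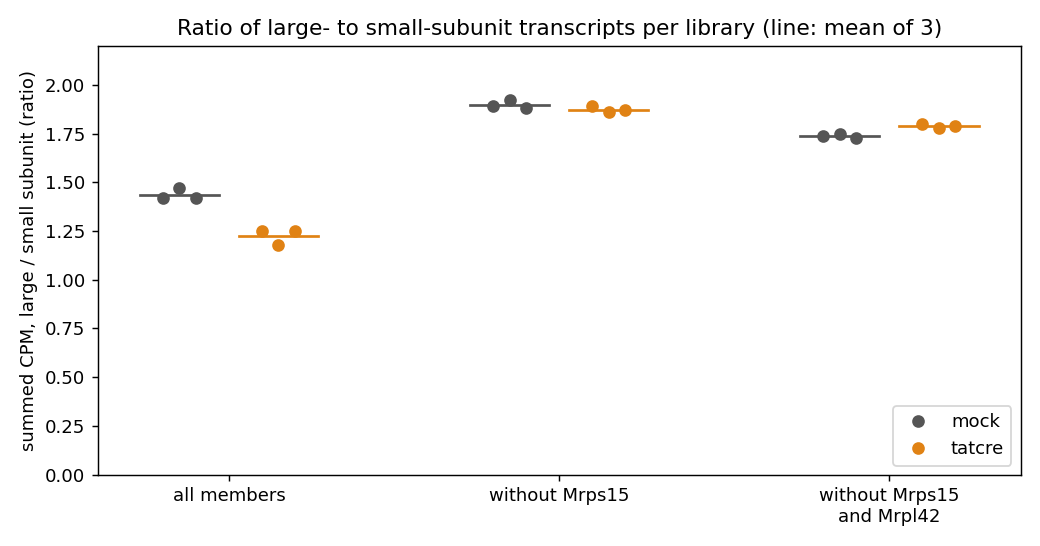
Ratio of summed CPM of large-subunit to small-subunit genes in each library, for all members, without Mrps15, and without Mrps15 and Mrpl42 (mock grey, tatcre orange, lines at the mean of 3). The separation seen over all members, 1.42 to 1.47 against 1.18 to 1.25, is absent once Mrps15 is left out, and without Mrpl42 as well the tatcre libraries lie higher (1.78 to 1.8 against 1.73 to 1.75).

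Many of these genes start back to back with another gene, which made it possible to compare each with a neighbour that starts close by. Whether the 2 genes of a pair share a promoter was not tested. Of the 69 genes with a window 25 (36.2%) had a protein-coding neighbour starting in the opposite direction within 1000 bases, against 14% of tested protein-coding genes. Of the 11 such neighbours of members that fell 4 also fell and 7 were not called, where 1849 of 9453 tested protein-coding genes with a window fell. Eme1, which encodes a subunit of a DNA repair nuclease and starts 48 bases from Mrpl27, fell from 50.2 to 38.7 CPM (edgeR adjusted p = 0.011). Psma2, a proteasome subunit gene next to Mrpl32 (182 to 151 CPM, edgeR adjusted p = 0.018), was lost without mock 2 or tatcre 1 (edgeR adjusted p = 0.054 and 0.065). Ncapd2, a condensin subunit gene next to Mrpl51 (332 to 278 CPM, edgeR adjusted p = 0.034), was lost without mock 1, mock 2, tatcre 1 or tatcre 2 (edgeR adjusted p = 0.073 to 0.089). Ighmbp2, a helicase gene next to Mrpl21 (13.7 to 10.4 CPM, edgeR adjusted p = 0.043), was lost on leaving out any library but tatcre 3 (edgeR adjusted p = 0.084 to 0.14).

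At some members with strong falls the neighbour was not called; the difference within a pair was not tested. Ppp1r10, a phosphatase regulator gene that starts 756 bases from Mrps18b, had means of 90.8 and 86.4 CPM (log2 fold change -0.07, edgeR adjusted p = 0.65). Hira, a histone chaperone gene 113 bases from Mrpl40, had means of 10.5 and 11.2 CPM (log2 fold change 0.09, edgeR adjusted p = 0.67). At Mrps27 the directions were opposite: Ptcd2, another pentatricopeptide repeat gene, starts 108 bases away and fell from 69.5 ± 4.89 to 42.9 ± 6.85 CPM (log2 fold change -0.69, edgeR adjusted p = 0.0013) while Mrps27 rose. Gga3, a trafficking adaptor gene 224 bases from Mrps7, fell (42.1 to 24.6 CPM, log2 fold change -0.78, edgeR adjusted p = 0.00024), whereas Mrps7 had no call (log2 fold change 0.07, edgeR adjusted p = 0.68). Mrpl46 and Mrps11 are members that start 42 bases apart, and neither was called (log2 fold changes 0.1 and 0.17, edgeR adjusted p = 0.42 and 0.48).

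**Figure D5:**
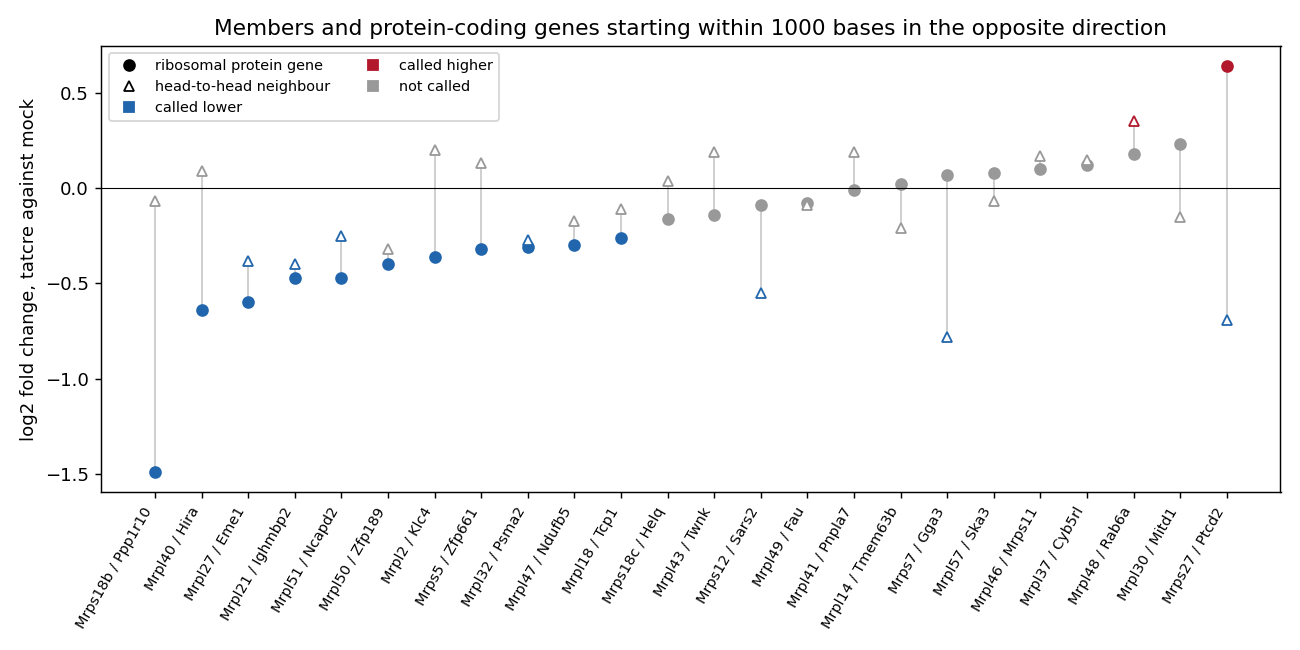
Log2 fold change of members (filled circles) and of the protein-coding gene that starts within 1000 bases in the opposite direction (open triangles), joined by a line and coloured by call. Pairs at the left are led by Mrps18b at -1.49 beside Ppp1r10 at -0.07, and at the far right Mrps27 (0.64) and Ptcd2 (-0.69) lie on opposite sides of 0.

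Some members have annotated copies with counts of their own. The annotation names pseudogenes of Mrpl23, Mrpl48, Mrps36, Mrpl51 and Mrps33, and these had up to 731 counts in a library. Mrpl23, the tested member with the fewest counts, had 2.53, 2.85 and 2.68 CPM in mock and 2.66, 1.34 and 1.16 CPM in tatcre libraries, with overlap and no call (log2 fold change -0.64, SE 0.35, edgeR adjusted p = 0.2). Its 29 to 77 counts per library were fewer than the 170 to 377 counts of Mrpl23-ps1. Mrps36, whose product is also known as a subunit of the oxoglutarate dehydrogenase complex, had 3.55, 3.15 and 2.94 CPM in mock and 3.28, 2.34 and 2.21 CPM in tatcre libraries (log2 fold change -0.3, edgeR adjusted p = 0.39). Its pseudogene Mrps36-ps2 had 128 to 313 counts against its own 55 to 94. With the copies added to their parents, a fit chosen after these counts had been seen, Mrps36 went from 20.4 ± 1.57 to 12.3 ± 0.808 CPM (log2 fold change -0.73, edgeR adjusted p = 0.00079) and Mrpl23 from 15.9 ± 0.84 to 10.9 ± 2.12 CPM (log2 fold change -0.54, edgeR adjusted p = 0.02). Mrpl51 remained lower in that fit (log2 fold change -0.46, edgeR adjusted p = 0.0027), and Mrpl48 and Mrps33 were not called. The sources used here do not say how reads that map to more than 1 place were counted, so the values of these 5 genes are uncertain.

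Mrpl53 was the member that could not be tested: it had 1 count in tatcre 3 and 0 in the other libraries, where a count of 0 allows up to 0.111 to 0.128 CPM. Ccdc142, which overlaps it by 14 bases, was listed at 0 in every library. Of the 79 members 21 overlap another protein-coding gene in RefSeq, among them Mrps6, 54.1% of which lies within the range of Slc5a3. Slc5a3, a solute transporter gene, rose from 5.42 to 10.6 CPM (edgeR adjusted p = 0.00079), and Mrps6 had a log2 fold change of -0.34 without a call (edgeR adjusted p = 0.098). Of the 12 called members with an absolute log2 fold change of at least 0.5, none had more than 2.81% of its range overlapped.

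Other proteins of mitochondrial translation were taken from lists of their known genes. Among 4 ribosomal proteins with other names, Gadd45gip1, a large-subunit protein, fell from 47.4 ± 1.66 to 33 ± 2.63 CPM (edgeR adjusted p = 0.0017). Ptcd3, a pentatricopeptide repeat protein of the small subunit, rose from 124 ± 7.07 to 153 ± 7.06 CPM (edgeR adjusted p = 0.016), a call lost without mock 1 or tatcre 3 (edgeR adjusted p = 0.055 and 0.053). Aurkaip1 and Chchd1 were not called. Of 27 factors of ribosome assembly and ribosomal RNA processing 4 fell (14.8%) and 3 rose (11.1%). These shares were near the 16.3 and 10.8% of all tested genes. Nsun4, a methyltransferase that acts in assembly of the subunits, fell from 10.5 ± 0.253 to 6.41 ± 0.378 CPM (edgeR adjusted p = 0.002), and Rpusd4, a pseudouridine synthase, from 22.2 ± 1.26 to 14.6 ± 2.01 CPM (edgeR adjusted p = 0.0043). Pnpt1, the mitochondrial polynucleotide phosphorylase, fell from 162 ± 11.2 to 108 ± 11.4 CPM (edgeR adjusted p = 0.0012). Mettl17 fell too (edgeR adjusted p = 0.018), but not without mock 1 or mock 2 (edgeR adjusted p = 0.065 and 0.056). The rises were those of Ybey, an RNA endonuclease (3.73 to 6.27 CPM), Mettl15, a ribosomal RNA methyltransferase (5.07 to 7.74 CPM), and Rcc1l (8.62 to 13 CPM). Each was lost on leaving out 1 of several libraries: Ybey without mock 2 or tatcre 1, Mettl15 without mock 2, mock 3 or tatcre 1, and Rcc1l without mock 1, mock 3, tatcre 1 or tatcre 3 (edgeR adjusted p = 0.052 to 0.13).

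Of 15 tested factors of mitochondrial translation and insertion 2 fell and 2 rose (13.3% each), near the 16.3 and 10.8% of all tested genes. Slirp, which stabilises mitochondrial messenger RNA, went from 33.4 ± 3.02 to 23.1 ± 2.83 CPM (edgeR adjusted p = 0.0057), and Oxa1l, the insertase that receives the new proteins, from 61.5 ± 5.51 to 42.9 ± 7.41 CPM (edgeR adjusted p = 0.011). Mtif2, the initiation factor, rose from 59 ± 3.06 to 78 ± 3.42 CPM (edgeR adjusted p = 0.004), and Mtrf1, a release factor, from 12.7 ± 0.469 to 18 ± 0.353 CPM (edgeR adjusted p = 0.0046). Of the 79 tested protein genes of the cytosolic ribosome 7 fell and 7 rose (8.86% each), against 16.3 and 10.8% of all tested genes. The median log2 fold change of these cytosolic genes was -0.01. Counts of the cytosolic genes are uncertain because most have near-identical copies, and the difference between the 2 ribosomes was not tested.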

How the data were processed

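The authors deposited raw counts per gene for 6 RNA libraries; the tools HTSeq, TopHat2, Trimmomatic and SAMtools, and build mm10, are named per the submitters' processing notes. Per the labels' protocols the RNA kit was stranded; tool versions, annotation, strand setting and the handling of multiply mapped reads were not given in the sources used here. Unstranded or ambiguous counting would alter overlapping genes and copies.

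Of 48795 gene IDs 48349 matched a symbol, and biotypes and coordinates came from RefSeq genes (GRCm38.p6). The low-count filter was filterByExpr of edgeR (at least 10 counts, total at least 15), leaving 15546 genes, and tatcre was compared with mock by the quasi-likelihood test with TMM scaling (edgeR 4.0.16, R 4.3.3), adjusted over all tested genes at 0.05. A call means passing that threshold. CPM values use TMM-scaled library sizes. Standard errors were derived from the test's F statistic. The biological coefficient of variation was 0.129. The fit was tested on simulated data.

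Named were all called members; values in all libraries are given for those with an absolute log2 fold change of at least 0.5, Dap3, the 3 highest and 3 lowest, and the Mrps18 paralogs. Members, lists and tests were chosen with earlier results of these data known. No pairing was used, since replicate numbers are not stated to mark a mouse. Same-numbered libraries did not clearly deviate together (correlations 0.06, -0.03 and 0.23), which cannot show whether they were paired. Alternatives were other scalings, no filter, DESeq2 (1.42.0), a replicate block, leaving out each library and, added after seeing the data, adding pseudogenes to their parents. The motif search used both strands of every window.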

Additional observations from a re-analysis of the deposited data

How the results depend on the processing

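With library size alone 9 members fell and 15 rose (large subunit 6 and 8, small subunit 3 and 7), with medians of 0.04 and 0.09 for the large and small subunit; over all tested genes 1894 fell and 2614 rose, against 2536 and 1679 in the fit reported. Upper-quartile factors gave 8 falls and 7 rises in the large subunit (2097 and 2229 over all genes). Without the low-count filter 5 members rose, 2 of them in the small subunit (2986 falls and 1970 rises over all genes). With the replicate number as a block 12 members fell and 4 rose (large subunit 8 and 2, small subunit 4 and 2; 2108 and 1313 over all genes); equal numbers are not known to mark a mouse, and the correlations of same-numbered libraries were 0.06, -0.03 and 0.23. Leaving out a library in turn gave 9 to 17 falls and 4 to 10 rises over all members, 6 to 13 falls and 2 to 6 rises in the large subunit, and 3 to 6 falls and 2 to 4 rises in the small subunit, where all genes gave 1960 to 2391 falls and 998 to 1681 rises. Medians then ran from -0.09 to -0.01 (large) and from -0.05 to 0.01 (small). The cause of these shifts was not tested. Calls that held in all 12 alternatives numbered 9 of 19 falls and 4 of 8 rises, and 10 genes not called were called in at least 1. Members with few counts, such as Mrpl23 (SE 0.35), had wide errors.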
